A study of Homo sapiens with 4 samples.

Results

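The genes of the mitochondrial respiratory chain were followed by genome of origin and by complex in prostate cancer cells treated with, or resistant to, enzalutamide. Members were chosen by symbol among the 33538 genes listed in the matrices: the NDUFA, NDUFB, NDUFC, NDUFS, NDUFV, UQCR, COX4 to COX8 and ATP5 families, SDHA to SDHD, CYC1 and the protein genes of the mitochondrial genome, without NDUFA4L2 and the NDUFAF assembly factors. This gave 106 genes, of which 89 were nuclear protein genes and 13 were mitochondrially encoded. The remaining 4 were 2 antisense RNAs (NDUFB2-AS1, NDUFV2-AS1) and 2 readthrough transcripts (ATP5MF-PTCD1, NDUFC2-KCTD14). The samples were 4 single-cell RNA sequencing (scRNA-seq) libraries of sorted living cells. LNCaP is an androgen-dependent line from a human prostate cancer metastasis, here held in 0.1% DMSO for 48 h. LNCaP-ENZ48 was the same line after 48 h in 10 µM enzalutamide (ENZ), an inhibitor of the androgen receptor. RES-A and RES-B were LNCaP sublines with acquired resistance, the former selected in ENZ and the latter in the related compound RD-162, and both were cultured with 10 µM ENZ. Each group was 1 library of 1 line, so no difference had a replicate check and no test was made.

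The respiratory chain passes electrons from NADH and succinate through complexes I, II, III and IV to oxygen, and complex V, the ATP synthase, uses the proton gradient this builds to make ATP. All subunits of complex II come from nuclear genes. The other complexes join nuclear subunits with subunits made from the mitochondrial genome, so both genomes have to supply the same enzyme. Normal prostate epithelium exports citrate and oxidises little of it, and prostate cancer cells are known for a return to citrate oxidation and respiration.

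Levels are given as CPM, the unique molecular identifiers (UMIs) counted for a gene in all cells kept from a library, per 1e6 UMIs of that library. Kept cells were 1782 in LNCaP and 4315 in LNCaP-ENZ48, against 4569 in RES-A and 4061 in RES-B, and library totals were between 50208831 and 60838227 UMIs. LNCaP cells were the deepest, with a median of 27079.5 UMIs against 12138 to 13676 in the other libraries. Between 2 and 9 barcodes were shared by any pair of libraries. All 10 luminal prostate line markers were detected in every library, with a summed level from 1747 CPM in RES-A to 2841 CPM in LNCaP, although the androgen-regulated KLK3 stood at only 0.0349 CPM in RES-A. The immune, fibroblast and endothelial marker lists each summed to at most 3.21 CPM in any library, with PTPRC, CD3E and COL1A2 at 0 throughout. MALAT1 and NEAT1 are nuclear RNAs used here as signs of RNA quality. On the log2 scale MALAT1 differed from LNCaP by 0.52 in LNCaP-ENZ48, by -0.82 in RES-A and -0.59 in RES-B. NEAT1 differed by 0.27, -1.49 and -0.89 in the same order. The part of RNA quality in the values below was not tested.

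Of the nuclear protein genes, 81 reached a mean of 10 CPM over the libraries, as did all 13 mitochondrially encoded genes. The width of the 95% Poisson interval of a level, halved, was at most 7.02% of the level, for NDUFA7, and at most 1.46% for the median member. Intervals given for a ratio are exact conditional binomial intervals at 95% and, like those of levels, cover counting error only. Since the tags lie at the 3′ end of transcripts, and near copies may take an uneven share of reads, no order of levels between genes is given. A gene was counted as past the fold at a log2 ratio of 0.32 or more in either direction.

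To describe the short treatment, LNCaP-ENZ48 was compared with LNCaP. Nuclear subunits were slightly higher across all complexes. Their median log2 ratio was 0.11 and 71 of 81 were above 0, where the median of all 7460 genes with that level was -0.07. Only 3 nuclear members were past the fold, all higher, and 4.30% of all genes were past it in that direction. They were NDUFB4 (0.54), the ATP synthase inhibitor ATP5IF1 (0.39) and NDUFB8 (0.36). No nuclear member was past the fold downward. In contrast, 11 of 13 mitochondrially encoded genes were below LNCaP, with a median of -0.07, equal to that of all genes, and 2 were past the fold downward, beside 13.2% of all genes. With TMM scaling, which moved the median of all genes by 0.10, the mitochondrial median turned to 0.02, and 12 members were past the fold upward and 1 downward. The share of all genes past the fold with that scaling is not given here, so these counts have no such comparison.

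In RES-A against LNCaP the nuclear subunits spread apart. The median was 0.13 (all genes 0.02), with 24 nuclear members past the fold upward, beside 25.1% of all genes, and 5 downward, beside 23.4%. The share of nuclear members past the fold upward was thus 29.6% and downward 6.17%. In RES-B the nuclear median was 0.14 (all genes 0.11), with 19 nuclear members past the fold upward, beside 30.7% of all genes, and 10 downward, beside 17.5%. The 13 mitochondrially encoded genes had a median of 0.05 in RES-A, with 1 past the fold, and of 0.16 in RES-B, with 4 past it, all upward. These comparisons share the LNCaP library. The median of all genes depended on the minimum level: with a minimum of 50 CPM it was 0.09 in RES-A and 0.14 in RES-B. Under TMM scaling, which moved the median of all genes by -0.05 in RES-A and -0.11 in RES-B, 23 members were past the fold upward and 9 downward in RES-A (25 and 5 without it), and 16 upward and 17 downward in RES-B (23 and 10 without it). Shares of all genes past the fold with TMM scaling are not given here.

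RES-B was also set directly against RES-A. The nuclear median was -0.06 where that of all genes was 0.09, and 8 nuclear members were past the fold in each direction, beside 27.9% of all genes upward and 14.5% downward. The mitochondrial median was 0.10, with 2 members past the fold each way. Of all members, 10 were thus past the fold in each direction, and 5 upward and 14 downward with TMM scaling, for which the shares of all genes are not given. The plot of ratios by complex shows the narrow band of nuclear members after short treatment and their wide scatter in both resistant lines.

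**Figure D1:**
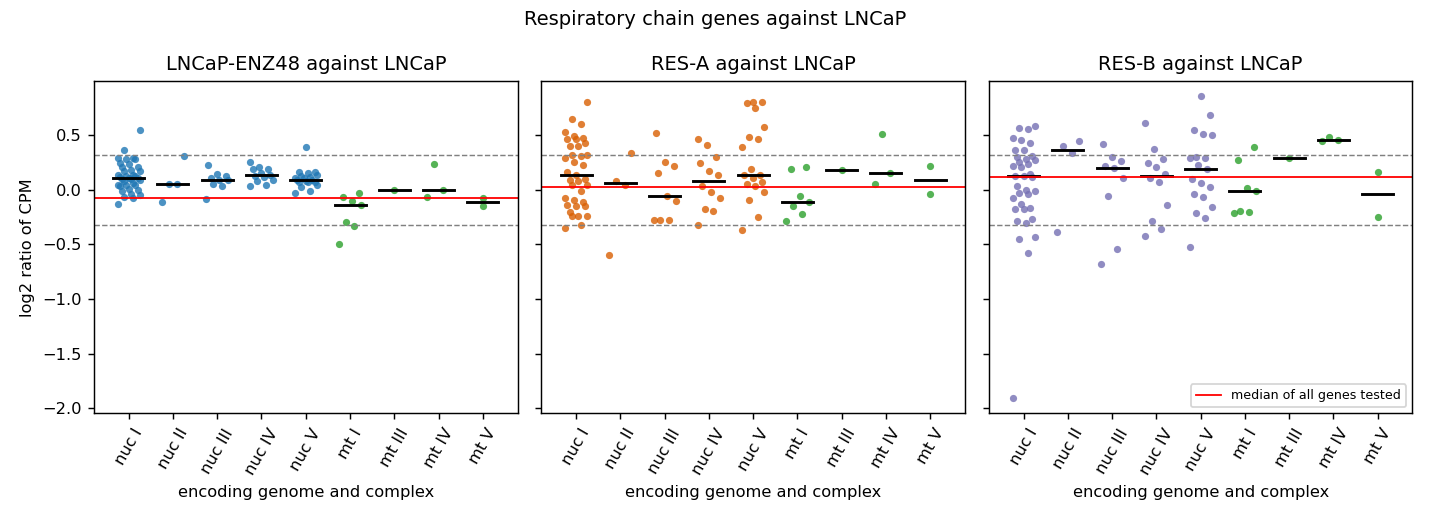
Log2 ratio of CPM against LNCaP (vertical axis) for each tested member, in columns by encoding genome (nuc, nuclear; mt, mitochondrial) and complex, in 3 panels for LNCaP-ENZ48, RES-A and RES-B. Black bars are medians of a column, the red line is the median of all 7460 genes tested, and dashed lines mark 0.32 and -0.32. Nuclear members lie in a narrow band, mostly above the red line, in LNCaP-ENZ48 and scatter widely in RES-A and RES-B, where the point at -1.91 is NDUFB4.

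Complex I held 37 nuclear members, all tested. Their summed level was 8896 CPM in LNCaP and 9828 in LNCaP-ENZ48, with 10382 in RES-A and 9106 in RES-B. Complex I was thus highest in RES-A, by 0.22 (0.22 to 0.23) on the log2 scale over LNCaP, and the sum for RES-B differed from LNCaP by 0.03. That small difference includes NDUFB4, at 732 CPM in LNCaP but 195 in RES-B. The other members together were therefore higher than LNCaP by more than the sum shows. The 37 genes had a median log2 ratio to LNCaP of 0.13 for RES-A and 0.12 for RES-B. Of these genes, 12 were past the fold upward in RES-A and 8 in RES-B, with 2 and 4 downward. These were 32.4% and 21.6% of them upward, beside 25.1% and 30.7% of all genes, and 5.41% and 10.8% downward, beside 23.4% and 17.5%.

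NDUFB4, an accessory subunit of the membrane arm of complex I (chr3:120596328-120602507), had the largest ratio of any member with at least 10 CPM. Its level was 732 CPM (725 to 739.7) in LNCaP and 1068 (1060 to 1076) in LNCaP-ENZ48, with 1009 (1000.4 to 1017) in RES-A and 195 (191 to 199) in RES-B. It was therefore higher than LNCaP after short treatment and in RES-A, and far lower in RES-B. The log2 ratio to LNCaP was 0.54 (0.53 to 0.56), 0.46 (0.44 to 0.48) and -1.91 (-1.94 to -1.88), and RES-B differed from RES-A by -2.37. The next lowest nuclear complex I gene in RES-B was NDUFA3, at -0.58. NDUFB4 has 12 annotated pseudogenes, and how reads shared with such copies were counted was not examined, so its level is uncertain. The effect of these copies was not measured by library, and its part in the ratios was not tested.

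The catalytic core subunits of complex I, which carry the NADH site and the iron-sulfur clusters, did not move as a block. NDUFV1, which binds FMN and takes electrons from NADH, stood at 136 CPM in LNCaP and 136 in LNCaP-ENZ48, with 182 in RES-A and 100.4 in RES-B. It was equal in the treated and untreated parental line, and the resistant lines lay on opposite sides, at 0.43 (0.38 to 0.47) and -0.43 (-0.48 to -0.38). NDUFS8, an iron-sulfur subunit, had 246, 266, 300.0 and 199 CPM in the same order of libraries. It too was highest in RES-A and lowest in RES-B, with a difference between them of -0.59 (-0.63 to -0.56).

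Other core subunits differed less between the resistant lines. NDUFS1, which holds several iron-sulfur clusters, had 52.8, 59.4, 69.6 and 79.1 CPM. It had its highest value in RES-B, at 0.58 (0.51 to 0.65) over LNCaP. NDUFV2, another iron-sulfur subunit, stood at 452, 467, 393 and 498 CPM and was lowest in RES-A, while NDUFS7 stayed between 161 and 171 CPM in all libraries.

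Among the accessory subunits, NDUFA9 had the highest ratio of complex I in RES-A. Its level was 54.9 CPM in LNCaP and 67.3 in LNCaP-ENZ48, with 95.7 in RES-A and 80.5 in RES-B, so that both resistant lines were above both parental libraries. The ratios were 0.80 (0.73 to 0.87) and 0.55 (0.48 to 0.62). NDUFB2, at 372, 397, 581 and 478 CPM, and NDUFA12, at 159, 169.6, 241 and 205 CPM, had the same order of libraries. NDUFB9 (232, 281, 325 and 342 CPM) and NDUFS5 (629.6, 746, 907 and 874 CPM) were also highest in the resistant lines.

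The lowest accessory subunits in the resistant lines, beside NDUFB4, were NDUFA3, NDUFA6 and NDUFA10. NDUFA3 had 174, 169, 139 and 116 CPM, with ratios of -0.32 (-0.37 to -0.28) in RES-A and -0.58 (-0.63 to -0.53) in RES-B. NDUFA6, a member of the LYR family, was at 189.6, 194, 195 and 139 CPM and so was low in RES-B alone among the libraries. NDUFA10 showed the opposite, with 74.0, 81.0, 58.0 and 86.0 CPM and a ratio of -0.35 in RES-A against 0.22 in RES-B. NDUFB8 was above LNCaP in every other library, with 114 CPM in LNCaP and 141 to 146 in the rest.

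Complex II, succinate dehydrogenase, had 4 members and no mitochondrial counterpart. Its summed level was 315 CPM in LNCaP and 351 in LNCaP-ENZ48, with 317 in RES-A and 379 in RES-B, highest in RES-B with a ratio of 0.26 (0.23 to 0.29). SDHA, the flavoprotein that oxidises succinate, had 45.7, 47.4, 57.7 and 62.0 CPM. SDHB, the iron-sulfur subunit, had 65.5, 68.0, 69.2 and 86.1 CPM. Both were highest in RES-B, with ratios of 0.44 (0.36 to 0.52) and 0.40 (0.33 to 0.46). The membrane anchors differed from each other: SDHC was at 149, 185, 154 and 188 CPM, whereas SDHD was at 55.1, 50.9, 36.4 and 42.1 CPM. SDHD was thus lower than LNCaP in both resistant lines, by ratios of -0.60 (-0.68 to -0.51) and -0.39 (-0.47 to -0.31), in which the other 3 members lay above LNCaP.

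In complex III, 9 of 10 nuclear members were tested and their ratios in RES-B had both signs. UQCRC1, a core protein, had 110.2, 119.9, 158 and 135 CPM, and CYC1, the haem-carrying cytochrome c1, had 245, 271, 292 and 328 CPM. Their ratios in RES-B were 0.30 (0.25 to 0.35) and 0.42 (0.39 to 0.45). Among the small subunits, UQCRQ was at 0.22 in RES-B and UQCRB at -0.06, whereas UQCR10 (566, 600.0, 467 and 353 CPM) and UQCR11 (577, 589, 475 and 396 CPM) were lowest in RES-B, with ratios of -0.68 (-0.71 to -0.66) and -0.54 (-0.57 to -0.52). UQCRFS1, the Rieske iron-sulfur protein, ranged only from 315 to 359 CPM. UQCRH, the hinge protein, was at 1306, 1356, 1076 and 1566 CPM, lowest in RES-A and highest in RES-B. It shares reads with its near copy UQCRHL, which stayed between 6.13 and 9.62 CPM, under the minimum.

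Of 18 nuclear complex IV members, 12 were tested. The sum was 7976 CPM in LNCaP and 8707 in LNCaP-ENZ48, with 8427 in RES-A and 8376 in RES-B, higher than LNCaP in all 3 by 0.07 to 0.13. After short treatment all 12 were above 0, from 0.04 for COX7A2L to 0.25 for COX7B. COX4I1, the ubiquitous form of the regulatory subunit, had 735, 836, 1014 and 948 CPM. COX7A2, the form found outside muscle, had 535, 588, 709 and 814 CPM. Both were higher in the resistant lines than in either parental library, and COX7A2 had the highest complex IV ratio in RES-B at 0.61 (0.58 to 0.63).

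In RES-B 4 of the 12 were below LNCaP, COX5A at -0.14, COX7C at -0.29 and, past the fold, COX8A, a small membrane subunit, with 552, 586, 565 and 411 CPM, and COX7A2L, with 137, 140.1, 109 and 106 CPM. COX7A2L, which ties complexes III and IV together in supercomplexes, was low in both resistant lines, and COX8A in RES-B but not RES-A. NDUFA4, named for complex I and counted here with complex IV where it is found in the assembled enzyme, varied little, between 878 and 998 CPM.

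The tissue-restricted forms of complex IV subunits were at or near the floor. COX6A2 and COX7A1, the muscle forms, had 0 UMIs in every library, and COX4I2, the lung and hypoxia form, had 1 UMI in RES-A and 0 elsewhere. A count of 0 allows a level of up to 0.0598 CPM in LNCaP and 0.0493 in LNCaP-ENZ48, with 0.0523 in RES-A and 0.0571 in RES-B, taken as 3 UMIs. COX6B2, a testis form, had 14, 10, 4 and 6 UMIs, and COX8C had 10, 6, 55 and 12. COX8C was thus highest in RES-A, with a ratio of 2.27 (1.28 to 3.41). COX7B2 stood at 4.80 CPM in LNCaP and 3.94 in LNCaP-ENZ48 but at 1.43 in RES-A and 1.10 in RES-B, with ratios of -1.75 (-2.13 to -1.38) and -2.12 (-2.56 to -1.70) in the resistant lines. These genes lay under the minimum and are not among the counts above.

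Complex V had 20 nuclear members, 19 of them tested, and the highest sum in RES-A: 8478 CPM in LNCaP and 8983 in LNCaP-ENZ48, with 10096 in RES-A and 9165 in RES-B. In RES-A, 8 members were past the fold upward and ATP5MG alone downward, which was 42.1% and 5.26% of those tested, beside 25.1% and 23.4% of all genes. The subunits of the catalytic head did not move together. ATP5F1B, the catalytic beta subunit, had 492, 517, 857 and 717 CPM, whereas ATP5F1A, the alpha subunit that alternates with it, had 404, 424, 378 and 459.9 CPM. The ratio for ATP5F1B was 0.80 (0.78 to 0.82) in RES-A and 0.55 (0.52 to 0.57) in RES-B, and for ATP5F1A -0.10 (-0.13 to -0.07) and 0.19 (0.16 to 0.21).

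Subunits of the stalks differed. ATP5PO, which joins head and stator, had 227, 253, 395 and 320.0 CPM, and ATP5PF, coupling factor 6, had 379, 422, 655 and 610.1 CPM. Both were above the parental libraries in both resistant lines, with ATP5PF at 0.79 (0.76 to 0.81) in RES-A and 0.69 (0.66 to 0.71) in RES-B. ATP5F1D and ATP5F1E, of the central stalk, were at 0.13 and 0.05 in RES-A and at 0.02 and -0.26 in RES-B. ATP5PB, the stator b subunit, was instead highest in RES-B, with 229, 243, 247 and 326 CPM. The 3 genes of the proton-conducting c subunit, which encode the same mature protein, differed in RES-A, where ATP5MC3 stood at 0.58 (0.55 to 0.60), ATP5MC1 at 0.48 (0.45 to 0.51) and ATP5MC2 at 0.19 (0.17 to 0.21). ATP5MG, a small membrane subunit, had 632, 681, 491 and 438 CPM and was below LNCaP in both resistant lines.

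ATP5IF1 blocks the synthase from running in reverse when the proton gradient fails. With scaling by library totals, it was the only member past the fold upward in all 3 comparisons with LNCaP. The 3 share the LNCaP library, and the share of all genes past the fold in all 3 is not given here. Its level was 313 CPM in LNCaP and 409 in LNCaP-ENZ48, with 525 in RES-A and 566 in RES-B. Each library outside LNCaP was higher, with ratios of 0.39 (0.36 to 0.42), 0.75 (0.72 to 0.78) and 0.86 (0.83 to 0.88). It stayed past the fold with TMM scaling and DESeq2 size factors. Whether other members were then also past it in all 3 comparisons was not counted.

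The mitochondrially encoded genes made up 9.60% of UMIs in LNCaP, 9.34% in LNCaP-ENZ48, with 10.5% in RES-A and 12.1% in RES-B. An upper limit on this share per kept cell was set at 15%, 15%, 17% and 20% in the same order, and removed 9, 20, 38 and 78 further cells, and its part in these values is covered by the alternatives at the end. All are read from 1 genome and cut from long precursors, yet they did not shift alike. After short treatment 2 of the 7 complex I genes were past the fold downward, MT-ND2 at 3019 CPM in LNCaP and 2135 in LNCaP-ENZ48, a ratio of -0.50 (-0.51 to -0.49), and MT-ND3 at 6084 and 4844 CPM, a ratio of -0.33 (-0.34 to -0.32). The others lay between -0.03 for MT-ND6 and -0.29 for MT-ND4L, and those nearest to 0, MT-ND6 and MT-ND5 (-0.06), were above 0 with TMM scaling. MT-CO2, an oxidase subunit that receives electrons from cytochrome c, was instead higher, at 12710.0 and 14943 CPM, a ratio of 0.23.

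The oxidase genes were the highest of the mitochondrially encoded genes by ratio in RES-B. MT-CO1, the subunit where oxygen is reduced, had 15548 CPM in LNCaP and 15490.0 in LNCaP-ENZ48, with 17302 in RES-A and 21246 in RES-B. MT-CO3, the third core subunit of the oxidase, had 19311, 18430.0, 20043 and 26890.0 CPM, and MT-CO2 reached 18074 CPM in RES-A and 17332 in RES-B. In RES-B all 3 were past the fold, with ratios of 0.45, 0.45 and 0.48 for MT-CO1, MT-CO2 and MT-CO3. In RES-A only MT-CO2 was, at 0.51 (0.50 to 0.51). With TMM scaling, which lowers every RES-B ratio by 0.11, these 3 had ratios of 0.34, 0.34 and 0.37.

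Complex I genes of the mitochondrial genome were mixed in RES-B. MT-ND1 had 4322, 3926, 3995 and 5646 CPM, highest in RES-B with a ratio of 0.39 (0.38 to 0.39), which was no longer past the fold with TMM scaling. MT-ND4 was at 8523, 7915, 9848 and 10301 CPM, above the parental libraries in both resistant lines. MT-ND5 (1097, 1049, 1052 and 948 CPM) and MT-ND4L (244, 199, 277 and 211 CPM) were below LNCaP in RES-B. MT-ND6, the only protein gene on the light strand, had 268, 262, 220.1 and 233 CPM and was below LNCaP in both resistant lines. MT-CYB, the single complex III gene, had 11014, 11020.0, 12496 and 13439 CPM. The counts of the overlapping pair of complex V differed. MT-ATP6 had 13808, 13122, 13464 and 15461 CPM and was highest in RES-B, while MT-ATP8 had 82.5, 74.4, 96.0 and 69.5 CPM and was lowest there. MT-ND4L likewise overlaps MT-ND4, and tags lie at the 3′ end of transcripts. Whether the counts of MT-ATP8 and MT-ND4L measure RNAs separate from those of MT-ATP6 and MT-ND4 was not tested. These genes have many nuclear copies, from 2 annotated pseudogenes for MT-ATP8 to 48 for MT-CO1. The effect of these copies on the counted levels was not measured.

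**Figure D2:**
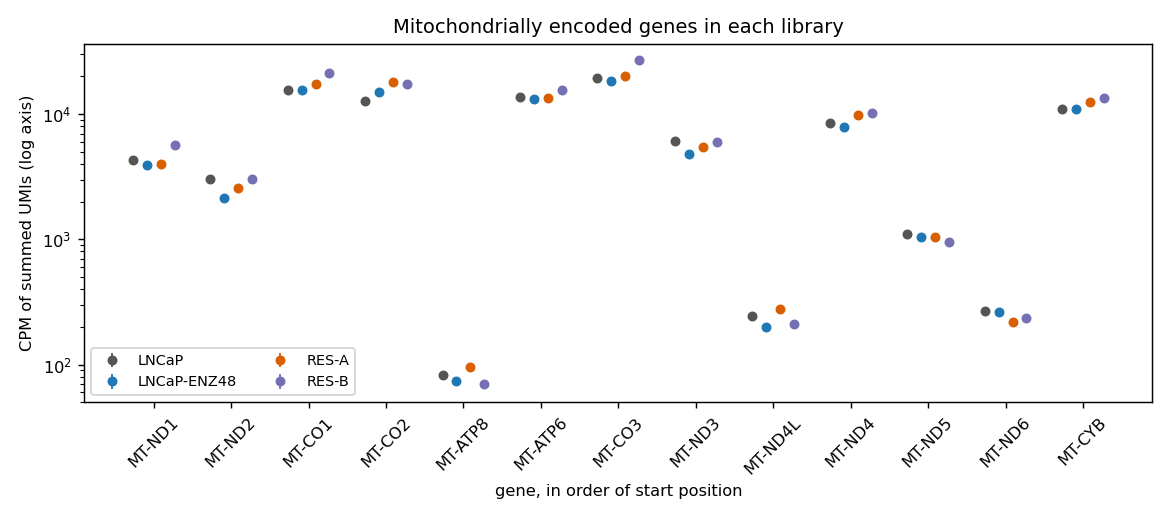
CPM of summed UMIs on a log axis for the 13 mitochondrially encoded genes in order of start position, 1 point for each of the 4 libraries. Bars are 95% Poisson intervals and are mostly smaller than the points. RES-B is highest for MT-ND1, MT-ND2, MT-CO1, MT-CO3, MT-ATP6, MT-ND4 and MT-CYB and lowest for MT-ATP8 and MT-ND5. LNCaP-ENZ48 is lowest for MT-ND1, MT-ND2, MT-CO1, MT-ATP6, MT-CO3, MT-ND3, MT-ND4L and MT-ND4.

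To compare both genomes within the same complex, summed mitochondrial UMIs were divided by summed nuclear UMIs, a ratio that does not depend on library scaling. Over all members it was 3.14 in LNCaP and 2.82 in LNCaP-ENZ48, with 3.10 in RES-A and 3.77 in RES-B. LNCaP-ENZ48 was therefore below LNCaP, by -0.15 on the log2 scale, RES-A was within 0.02 of it, and RES-B was above it by 0.26. The near equality in RES-A hid opposite shifts between complexes. There the ratio was lower for complex I (2.26 against 2.65 in LNCaP) and complex V (1.34 against 1.64), and higher for complex III (2.68 against 2.22) and complex IV (6.58 against 5.96). The log2 differences were -0.23, -0.29, 0.27 and 0.14.

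In LNCaP-ENZ48 the ratio was lower for every complex, from -0.07 in complex III to -0.36 in complex I. In RES-B it was higher for every complex, from 0.05 in complex V to 0.39 in complex IV, where it reached 7.82. Set against RES-A, the RES-B ratio differed by 0.34 to 0.36 in complexes I and V and by -0.01 in complex III. The nuclear sum of complex I includes NDUFB4, at 732 CPM in LNCaP, 1009 in RES-A and 195 in RES-B. Its part in the complex I differences of RES-B was not tested. With all deposited barcodes, the overall difference was 0.01 in RES-A and 0.36 in RES-B. With 1 filter for all libraries, including a limit of 15% on the mitochondrial share, the RES-B difference was 0.21.

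**Figure D3:**
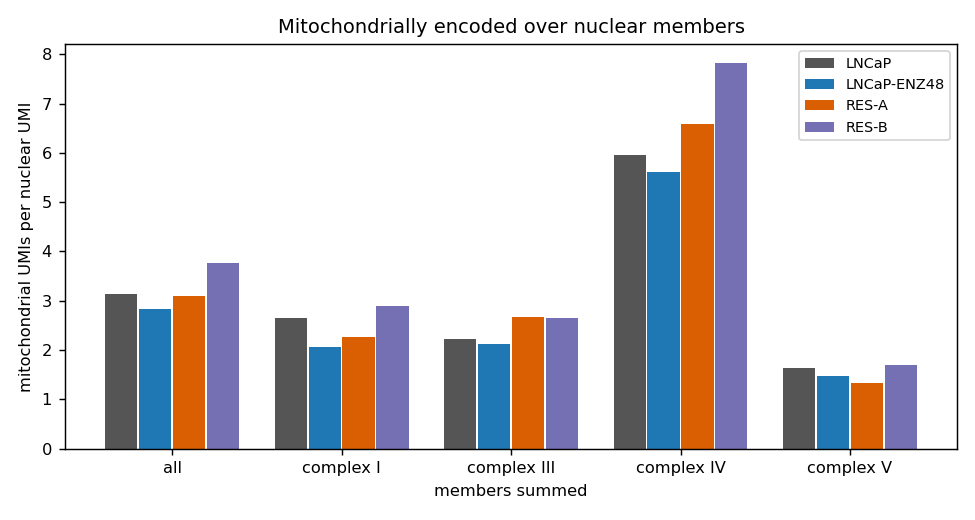
Mitochondrially encoded UMIs per nuclear UMI (vertical axis, from 0) for all members and for complexes I, III, IV and V, with 1 bar for each of the 4 libraries. RES-B is highest for all members and for complexes I, IV and V, and LNCaP-ENZ48 is below LNCaP in every group.

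Nuclear members were also set beside the genes around them, as the median ratio of up to 50 protein-coding genes with at least 10 CPM, 25 on each side on the same chromosome. In LNCaP-ENZ48, 78 of 81 nuclear members were above their neighbours. In RES-A it was 53 and in RES-B 43. Across the 81 genes, Pearson's r between member and neighbour median was 0.06 in LNCaP-ENZ48, with 0.49 in RES-A and 0.59 in RES-B. These points are genes of 1 library each, many share neighbours, and r is given as a description. In the resistant lines a member's ratio thus went partly with its region, and the part of position in it was not tested.

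Several of the members named above sat in such regions. ATP5PF and ATP5PO on chromosome 21 had neighbour medians of 0.45 and 0.46 in RES-A, and COX7A2 on chromosome 6 had 0.52 in RES-A and 0.83 in RES-B, above its own 0.41 and 0.61. SDHD and ATP5MG, on chromosome 11, had neighbour medians of -0.37 and -0.41 in RES-A, of the same sign as their own -0.60 and -0.37. All 7 tested members on that chromosome except NDUFC2 were below LNCaP in RES-B, among neighbours between -0.19 and -0.29. NDUFV1 was 1 of them, at -0.43 with neighbours at -0.26. Its value of 0.43 in RES-A had neighbours at 0.10.

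Other members differed from their surroundings. ATP5IF1 stood at 0.75 in RES-A among neighbours at 0.04, NDUFB2 at 0.64 among -0.11, and ATP5MC3 at 0.58 among -0.01. NDUFA3 and UQCR11, on chromosome 19, stood at -0.58 and -0.54 in RES-B among neighbours at -0.04 and 0.07. NDUFB4 was the farthest, at -1.91 among neighbours at 0.10. The tested gene just before it, LRRC58, had 124, 104, 119 and 118 CPM, and the gene just after it, HGD, had 4.76, 3.11, 12.6 and 24.9 CPM. LRRC58 was thus close to level across the libraries, and HGD was highest in RES-B.

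**Figure D4:**
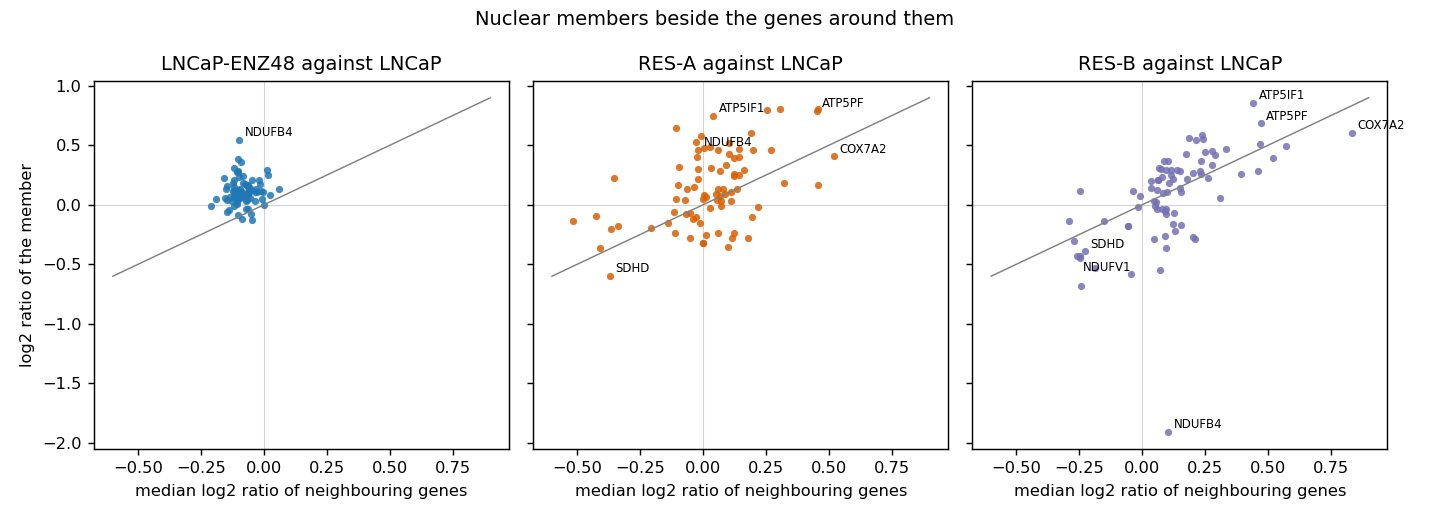
Log2 ratio of each of the 81 nuclear members (vertical axis) against the median log2 ratio of its neighbouring genes (horizontal axis), in 3 panels for LNCaP-ENZ48, RES-A and RES-B against LNCaP, with the line of equality in grey. Most points lie above the line in LNCaP-ENZ48, the cloud stretches along it in RES-A and RES-B, and NDUFB4 lies far below it in RES-B.

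Promoter sequences from RefSeq on GRCh38.p14, from 250 bases before to 50 bases after the start of a gene, were found for 68 of the 89 nuclear protein genes. They were searched on both strands for short cores of the sites of nuclear regulators of mitochondrial biogenesis: NRF1 (GCGCATGCG), ETS factors such as GABPA (CCGGAAG) and YY1 (AAGATGGCG). The NRF1 core was in 14.7% of member promoters, 2.10% of all promoters of that length and 4.82% of those of genes with at least 10 CPM. The ETS core was in 27.9%, 10.7% and 23.3%, and the YY1 core in 11.8%, 1.85% and 5.21%. At least 1 of the 3 was in 44.1% of member promoters, against 30.6% for expressed genes. A match is a stretch of letters and not a site shown to be bound.

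The promoters of 4 members with large ratios are shown with their matches in capitals. NDUFB4 was the lowest in RES-B among members with at least 10 CPM, SDHD was low in both resistant lines, NDUFA9 had the highest complex I ratio in RES-A, and ATP5PF was high in both and held all 3 cores. In NDUFB4 and SDHD the NRF1 core overlaps its own reverse complement, so that 10 letters are in capitals. SDHD also holds the ETS core, read here on the other strand, and NDUFA9 the YY1 core just after the start.
NDUFB4, chr3:120596086-120596385, plus strand: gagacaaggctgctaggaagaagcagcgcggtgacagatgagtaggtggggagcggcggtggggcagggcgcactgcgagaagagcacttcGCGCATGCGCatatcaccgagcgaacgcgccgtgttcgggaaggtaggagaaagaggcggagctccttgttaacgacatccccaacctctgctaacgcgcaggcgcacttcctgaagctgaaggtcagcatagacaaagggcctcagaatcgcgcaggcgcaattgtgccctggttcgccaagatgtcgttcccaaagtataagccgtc
SDHD, chr11:112086623-112086922, plus strand: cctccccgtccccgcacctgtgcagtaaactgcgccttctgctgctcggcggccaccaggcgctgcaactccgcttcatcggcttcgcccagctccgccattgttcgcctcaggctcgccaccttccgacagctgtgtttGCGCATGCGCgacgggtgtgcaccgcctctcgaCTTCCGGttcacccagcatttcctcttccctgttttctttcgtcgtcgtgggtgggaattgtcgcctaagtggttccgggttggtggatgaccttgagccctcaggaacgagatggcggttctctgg
NDUFA9, chr12:4648864-4649163, plus strand: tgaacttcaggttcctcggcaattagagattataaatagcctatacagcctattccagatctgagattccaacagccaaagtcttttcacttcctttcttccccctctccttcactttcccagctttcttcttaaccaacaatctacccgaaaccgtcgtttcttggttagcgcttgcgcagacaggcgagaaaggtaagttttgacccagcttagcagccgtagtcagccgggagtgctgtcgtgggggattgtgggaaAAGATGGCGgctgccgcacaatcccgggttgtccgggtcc
ATP5PF, chr21:25735005-25735304, minus strand: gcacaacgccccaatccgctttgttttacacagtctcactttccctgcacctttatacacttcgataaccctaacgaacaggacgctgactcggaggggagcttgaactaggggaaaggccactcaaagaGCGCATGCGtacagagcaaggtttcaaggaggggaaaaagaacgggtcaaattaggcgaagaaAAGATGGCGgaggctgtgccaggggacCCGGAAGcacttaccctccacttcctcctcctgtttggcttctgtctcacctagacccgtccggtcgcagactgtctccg
The NRF1 core was thus in the window of NDUFB4, at -1.91 in RES-B, of SDHD, at -0.39, and of ATP5PF, at 0.69.

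To see whether the library values held in single cells, each cell was thinned to 5000 UMIs. The median share of UMIs from nuclear members was 3.06% in LNCaP and 3.30% in LNCaP-ENZ48, with 3.36% in RES-A and 3.18% in RES-B (quartiles 2.78 to 3.38, 3.02 to 3.58, 3.08 to 3.64 and 2.86 to 3.52). The median share from mitochondrially encoded genes was 9.76%, 9.38%, 10.4% and 12.2%. Its quartiles were 8.605 to 10.78, 8.36 to 10.34, 9.32 to 11.58 and 10.48 to 13.7 in the same order. The quartile ranges of the nuclear share overlapped between all libraries. Those of the mitochondrial share did not meet between LNCaP-ENZ48 and RES-B. The unthinned nuclear shares were 3.08%, 3.31%, 3.38% and 3.20%. Cells called G2/M had the lowest nuclear share in every library, with medians from 2.74% in LNCaP to 3.28% in RES-A, and also the lowest mitochondrial share. Across cells, both shares correlated with a Pearson's r of 0.34 in LNCaP and 0.40 in LNCaP-ENZ48, with 0.05 in RES-A and 0.22 in RES-B. Cells of a library share its depth, and both shares come from the same 5000 UMIs. With the nuclear share taken of the UMIs that were not mitochondrial, r was 0.45, 0.51, 0.20 and 0.38 in the same order.

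NDUFB4 was the nuclear member with the highest variance over mean among cells in each library. Its mean was 3.69 UMIs per thinned cell in LNCaP, 5.31 in LNCaP-ENZ48, with 4.98 in RES-A and 0.948 in RES-B. Variance over the mean was 1.38, 1.46, 2.00 and 1.96, where the median nuclear member had 1.04 to 1.08. The share of cells without a UMI was 4.10%, 1.39%, 4.29% and 52.3%, while a Poisson count of the same mean would leave 2.50%, 0.496%, 0.690% and 38.8% at 0. The lower level held in each phase of RES-B, with 1.01 UMIs per cell in G1, 0.837 in S and 0.767 in G2/M, against 3.90, 3.46 and 2.98 in LNCaP. No cell type that lacks this gene was present to measure free RNA, whose part was not tested.

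**Figure D5:**
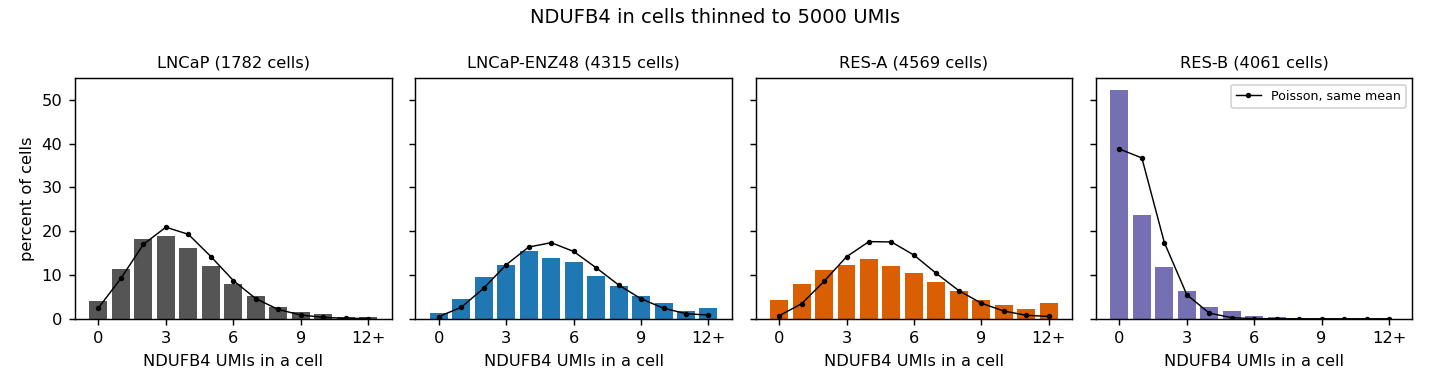
Percent of cells (vertical axis) by the number of NDUFB4 UMIs in a cell thinned to 5000 UMIs (horizontal axis, 12 or more pooled), in 1 panel for each of the 4 libraries. Black points are a Poisson count of the same mean. RES-B piles up at 0 UMIs, with 52.3% of cells there, and the bars are broader than the Poisson points in every library.

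The make-up of the mitochondrial UMIs also varied among RES-B cells. In the median cell MT-CO1 gave 16.2% of them in LNCaP, 16.5% in LNCaP-ENZ48, with 16.4% in RES-A and 17.4% in RES-B. Its value at the 95th percentile of cells was 20.2%, 20.4% and 20.03% in the former 3 libraries but 24.5% in RES-B. Its spread among cells was 2.04 times that of binomial sampling in RES-B and 1.27 to 1.40 times in the others. A limit of 25%, chosen after these values were seen, was reached by 4, 1 and 3 cells of LNCaP, LNCaP-ENZ48 and RES-A and by 177 of 4061 cells of RES-B (4.36%, exact binomial interval 3.75 to 5.03). In these RES-B cells MT-CYB gave a median of 7.05% of mitochondrial UMIs, against 11.2% in the other RES-B cells. Mitochondrial genes were 7.26% of their UMIs against 12.3%, and nuclear members 2.52% against 3.22%. Their unthinned depth was also lower, with a median of 8991 UMIs against 12469, and the part of depth was not tested. The limit is itself a share of mitochondrial UMIs, so the choice of these cells fixes part of the MT-CYB difference. A cell with few mitochondrial UMIs can also pass the limit more easily through counting error. The part of this in the lower mitochondrial share was not tested.

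Genes of the response to low oxygen, written as a list of 18 after some had been seen to mark these cells, were higher in them. NDRG1 had 1.74 UMIs per thinned cell against 0.235 in other RES-B cells, PLOD2 0.542 against 0.0883, VEGFA 1.37 against 0.347, and BNIP3, a receptor for the removal of mitochondria, 11.5 against 2.96. The choice of list fixes part of this difference. Cells were then ranked by the summed UMIs of this list, and about 5% of each library with the most were set beside the rest. Their mitochondrial share was 6.20% against 9.86% in LNCaP, 6.59% against 9.44% in LNCaP-ENZ48, 9.71% against 10.4% in RES-A and 7.56% against 12.4% in RES-B. Their nuclear share was 2.71% against 3.08%, 2.96% against 3.32%, 3.20% against 3.38%, and 2.72% against 3.22%. Both genomes thus gave smaller shares of UMIs in such cells of every library. These cells were also shallower, with medians of 22540.0 against 27354 UMIs in LNCaP, 10500.5 against 13841 in LNCaP-ENZ48, 11238.5 against 12212 in RES-A and 9011 against 12469 in RES-B, and the part of depth was not tested. In RES-B 65 of the 214 cells were also among the 177 from which the list was drawn. The mitochondrial difference was smallest in RES-A, where the list was also lowest in the ranked cells, with a median of 26.0 UMIs against 47.5 to 63.0 elsewhere. MT-CYB made up less of the mitochondrial UMIs in these cells of all 4 libraries (10.1%, 10.5%, 10.5% and 7.79%, against 11.6%, 11.95%, 11.98% and 11.2%), and MT-CO1 more.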

How the data were processed

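Per the labels, 4 libraries of sorted living cells were sequenced after droplet capture, with 1 library per group. The authors deposited UMI counts per gene and cell, made with Cell Ranger 3.0.2 on its prebuilt GRCh38 reference. Cells were kept with 3000 to 7000 genes and 16000 to 50000 UMIs in LNCaP, 1500 to 5000 genes and 5000 to 25000 UMIs in the others, and a mitochondrial share under 15% (both parental libraries), 17% (RES-A) and 20% (RES-B), after the limits in the study's methods. Of 2358, 4812, 5156 and 4907 deposited barcodes, 1782, 4315, 4569 and 4061 were kept, parental libraries listed ahead of resistant ones. Doublets were not called beyond the upper limits, and free RNA was not analysed. Counts were summed over the kept cells and divided by the library total (scanpy 1.11.5, numpy 2.4.6, pandas 2.3.3). Intervals are at 95% and cover counting error only. With 1 library per group no test was made. Ratios were summarised over genes whose mean level reached 10 CPM. Scaling alternatives used TMM factors (edgeR 4.0.16) and size factors (DESeq2 1.42.0) in R 4.3.3, and other alternatives changed the cell and gene filters. Cell phases came from fixed gene lists. Gene positions came from GENCODE 44, which matched 33113 of 33538 identifiers. The code was tested on simulated data. The genes named were the 13 mitochondrially encoded genes, SDHA to SDHD, CYC1, the 2 highest and 2 lowest nuclear ratios of complexes I, III, IV and V in each comparison, members past the fold as room allowed, and sets of paralogues. NDUFS7 and ATP5F1A were added after their values were seen. UQCRQ, UQCRB and ATP5F1D were also named outside these rules. The members, lists and rules were chosen with earlier results of these data known.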

Additional observations from a re-analysis of the deposited data

Results flagged for a closer look

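NDUFB4 and NDUFV1 had ratios to LNCaP past the fold in opposite directions in the resistant lines. NDUFB4 was at 0.46 in RES-A and -1.91 in RES-B on the log2 scale. NDUFV1 was at 0.43 in RES-A and -0.43 in RES-B. With 1 library per line this difference was not tested. Ratios past the fold in opposite directions were seen in 2 of 94 members and in 165 of all 7460 genes (2.21%), and both comparisons share the LNCaP library.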

How the results depend on the processing

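No paired analysis was possible because each group was 1 library, and leaving out a replicate was likewise not possible. No member past the fold changed sign under any of the 11 alternatives, although members left and joined the counts. Shares of all genes past the fold are not given for the alternatives. Where the causes of the shifts below are not part of the alternative itself, the cause was not tested. Values are log2 ratios in the order LNCaP-ENZ48, RES-A and RES-B against LNCaP, then RES-B against RES-A, and the reported values were 0.11, 0.13, 0.14 and -0.06 for the nuclear median, -0.07, 0.05, 0.16 and 0.10 for the mitochondrial median, and -0.15, -0.02, 0.26 and 0.28 for mitochondrial over nuclear UMIs.

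With TMM scaling the nuclear median was 0.20, 0.08, 0.03 and -0.11 and the mitochondrial median 0.02, 0.00069, 0.06 and 0.05, so that the latter changed sign in LNCaP-ENZ48. Members past the fold then numbered 12 higher and 1 lower in LNCaP-ENZ48, 9 lower in RES-A, 17 lower in RES-B, and 5 higher in RES-B against RES-A. With DESeq2 size factors the nuclear median was 0.21, 0.09, 0.04 and -0.12 and the mitochondrial median 0.03, 0.02, 0.06 and 0.04, again with a change of sign in LNCaP-ENZ48. Members past the fold numbered 13 higher and 1 lower in LNCaP-ENZ48, 16 lower in RES-B, and 5 higher in RES-B against RES-A. These shift the median of all genes by up to 0.10 in LNCaP-ENZ48 and -0.11 in RES-B.

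With all deposited barcodes the mitochondrial median was -0.09, 0.09, 0.26 and 0.16, and mitochondrial over nuclear was -0.18, 0.01, 0.36 and 0.35, with a change of sign in RES-A. In cells called G1 these were -0.10, 0.07, 0.14 and 0.10, and -0.15, 0.02, 0.27 and 0.25, with the same change of sign, and the nuclear median was 0.08 in RES-A and 0.17 in RES-B. In cells of 16000 to 25000 UMIs they were -0.08, 0.02, 0.19 and 0.13, and -0.13, -0.06, 0.24 and 0.30. There the nuclear median was 0.16 in RES-A and 0.19 in RES-B, with 10 members past the fold upward in LNCaP-ENZ48 and 3 downward in RES-A. With 1 cell filter for all libraries they were -0.09, 0.05, 0.12 and 0.06, and -0.16, -0.03, 0.21 and 0.24.

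Without a limit on the mitochondrial share, the mitochondrial median was 0.06 in RES-A, 0.18 in RES-B and 0.12 in RES-B against RES-A, and mitochondrial over nuclear was -0.01, 0.29 and 0.30. With the mitochondrial genes left out of the total, the mitochondrial median was 0.07, 0.20 and 0.13 in these comparisons, the nuclear median 0.18 in RES-B and -0.03 in RES-B against RES-A, and 3 members were past the fold downward in RES-A. Without the 5% of cells with the most UMIs, the mitochondrial median was 0.11 and mitochondrial over nuclear 0.28 in RES-B against RES-A. With no minimum level, 5 members were past the fold downward in LNCaP-ENZ48 and 9 in RES-A, and the nuclear median in RES-A was 0.10. With a minimum of 50 CPM the nuclear median in RES-B was 0.17. The median of all 2385 genes with that level was -0.02, 0.09, 0.14 and 0.02 in the order above. Counting NDUFA4 with complex I moved no log2 difference in mitochondrial over nuclear UMIs of complex I or IV by more than 0.01. The depth of these libraries limits only the members with few UMIs, such as COX6B2, COX8C and COX7B2.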

Other observations

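Genes that build or feed the respiratory chain were described from lists that hold no subunit. Of the assembly factors, 42 of 47 were tested, and 14 were past the fold upward and 6 downward in RES-A, with 10 and 9 in RES-B, against 0 and 2 in LNCaP-ENZ48. Upward these were 33.3% in RES-A and 23.8% in RES-B, beside 25.1% and 30.7% of all genes, and downward 14.3% and 21.4%, beside 23.4% and 17.5%. For LNCaP-ENZ48 they were 0% upward and 4.76% downward, beside 4.30% and 13.2% of all genes. TMEM70, an assembly factor of complex V, had 42.9 CPM in LNCaP and 42.1 in LNCaP-ENZ48, with 75.7 in RES-A and 77.3 in RES-B. It was higher in both resistant lines, with ratios of 0.82 and 0.85. TMEM126B, needed for the membrane arm of complex I, was at 0.79 in RES-A and -0.13 in RES-B. BCS1L, which inserts the Rieske protein into complex III, was at 0.59 and -0.13. COA1 was lower in both, at -0.66 and -0.83.

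Mitochondrial ribosomal proteins, 75 of 78 tested, had a median of -0.04 in LNCaP-ENZ48, with 0.19 in RES-A and 0.16 in RES-B, with 25 past the fold upward and 6 downward in RES-A and 21 and 5 in RES-B. Upward these were 33.3% and 28.0%, again beside 25.1% and 30.7% of all genes, and downward 8.0% and 6.67%, beside 23.4% and 17.5%. Genes that copy and read the mitochondrial genome, 19 of 24 tested, had medians of -0.16, 0.15 and 0.21, with 6 upward and 0 downward in RES-A and 7 and 1 in RES-B, which was 31.6% and 36.8% upward and 0% and 5.26% downward, beside the same shares of all genes. Among them SSBP1, which coats single-stranded mitochondrial DNA, was at 0.52 in RES-A and 0.35 in RES-B, while TFAM, which packs that DNA, was at -0.01 and 0.01. Of the regulators of biogenesis, 8 of 12 were tested, with medians of -0.21, -0.05 and -0.23. In both LNCaP-ENZ48 and RES-A 0 were past the fold upward (0%) and 2 downward (25%). Of all genes 4.30% and 25.1% were past it upward there, and 13.2% and 23.4% downward. In RES-B 1 was upward (12.5%) and 3 downward (37.5%), beside 30.7% and 17.5% of all genes. ESRRA, an orphan nuclear receptor that acts on respiratory genes, was at 0.11 in RES-A and -0.77 in RES-B, and MYC was at -0.70, -0.42 and -0.52 in LNCaP-ENZ48, RES-A and RES-B.

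Of the citrate cycle, 21 of 22 genes were tested, with medians of 0.05, 0.08 and 0.18. FH, fumarate hydratase, had 65.6, 69.4, 102 and 113 CPM, and DLAT, of the pyruvate dehydrogenase complex, had 27.7, 22.7, 17.3 and 17.3 CPM. A list of cytochrome c, genes that make or handle ubiquinone (COQ and PDSS genes) and other genes linked to it, such as dehydrogenases and electron transfer flavoproteins, held 21 genes, all tested, with 8 past the fold upward and 5 downward in RES-A and 9 and 2 in RES-B. These were 38.1% and 42.9% upward, beside 25.1% and 30.7% of all genes, and 23.8% and 9.52% downward, beside 23.4% and 17.5%. SQOR, which oxidises sulfide, had 10.9, 13.3, 21.3 and 40.7 CPM and was highest in RES-B with a ratio of 1.90. GPD2, the glycerol phosphate dehydrogenase, had 7.55, 6.38, 19.5 and 23.2 CPM. CYCS, cytochrome c itself, differed from LNCaP by at most 0.21 in any library.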
